A study of Mus musculus with 768 samples.

Results

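Tac1, the gene of the substance P precursor, and Tacr1, the gene of its receptor, were followed across single nuclei of mouse striatum. They are 2 of the 24489 genes of the deposited count table, and both were taken by symbol. Tac1 encodes a preprotachykinin that is cut into substance P and, depending on splicing, neurokinin A. In the striatum it is a peptide gene of the direct-pathway spiny projection neurons, the neurons that carry the D1 dopamine receptor, and immunostaining for substance P is one of the classical ways to outline the patches (striosomes) within the surrounding matrix. Tacr1 encodes the neurokinin 1 receptor, a Gq-coupled receptor that in the striatum is known from cholinergic interneurons and from interneurons that make somatostatin, neuropeptide Y and nitric oxide synthase.

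The nuclei came from untreated C57BL/6 mice of 2 genotypes, Oprm1-Cre:H2BG, meant to include patch neurons, and Slc32a1-Cre:H2BG, meant to take GABAergic neurons in general. Oprm1 encodes the mu opioid receptor and Slc32a1 the vesicular GABA transporter. Each driver is meant to mark cells in which that gene has been active, and how far it did so was not tested. All animals carried H2BG. The sources used here do not say how nuclei were labelled and sorted. Each genotype filled 1 of 2 plates with 768 wells in all, and no animals are named. Reads of Y-linked genes were found in 90.99% of the Oprm1-Cre nuclei and in 0 of the Slc32a1-Cre nuclei. Genotype, plate, animals and their sex cannot be told apart, so values are given without a test between plates, and nuclei are not treated as replicates.

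After filtering, 736 nuclei remained, from 92.4% of the Oprm1-Cre wells and 99.2% of the Slc32a1-Cre wells, with medians of 169398 and 175337 reads on genes (ranges 22727 to 581313 and 34513 to 487842). Levels are counts per 1000000 reads on genes (CPM). Intervals are exact 95% intervals and cover counting error only, because PCR reads without molecular identifiers are not independent molecules. Nuclei were classed by other genes, with Tac1 and Tacr1 left out of the clustering and of the marker scores. In all, 699 nuclei were like spiny projection neurons (SPN-like). By 6 markers such as Drd1 and Isl1, 431 of them were D1-like, 61.7% of which came from Oprm1-Cre mice. By 7 markers such as Drd2, Adora2a and Penk, 7.42% of the Oprm1-Cre (25 nuclei) and 41.99% of the Slc32a1-Cre SPN-like nuclei were D2-like. A further 46 and 45 nuclei were undecided, and 17 and 18 were interneuron-like.

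Tac1 lies on chromosome 6 of GRCm38 at chr6:7554879-7565834 on the plus strand, with 5 annotated transcripts of which 4 are coding (GENCODE M21). Tacr1 lies on the same strand at chr6:82402334-82560104, with 3 transcripts of which 2 are coding. No other annotated gene overlaps either of them. Coding exons 3 to 6 of Tac1 are shown because they carry the peptides and because their splicing decides which peptides a transcript can give. Exon 3 (chr6:7556684-7556780, 97 bases) carries substance P, and exon 6 (chr6:7559099-7559152, 54 bases) carries neurokinin A. Capitals mark the optional exons 4 (chr6:7557216-7557260, 45 bases) and 6, and lower case marks exons 3 and 5, which the 3 transcripts share.
Tac1 with exons 3 to 6: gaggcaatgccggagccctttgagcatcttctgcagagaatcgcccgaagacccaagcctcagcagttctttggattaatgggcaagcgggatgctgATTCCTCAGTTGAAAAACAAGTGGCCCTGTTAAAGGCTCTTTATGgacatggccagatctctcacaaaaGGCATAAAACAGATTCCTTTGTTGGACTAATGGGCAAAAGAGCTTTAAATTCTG
Tac1 without exon 4: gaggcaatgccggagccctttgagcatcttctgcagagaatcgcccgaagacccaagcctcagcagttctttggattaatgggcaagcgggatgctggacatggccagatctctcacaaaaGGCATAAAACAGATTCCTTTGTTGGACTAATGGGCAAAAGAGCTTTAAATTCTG
Tac1 without exon 6: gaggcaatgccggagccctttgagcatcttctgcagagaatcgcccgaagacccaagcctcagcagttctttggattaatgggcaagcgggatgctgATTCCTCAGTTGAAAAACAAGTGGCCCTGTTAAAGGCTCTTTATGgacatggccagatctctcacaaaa
The form without exon 6 can give substance P but not neurokinin A, while all 3 carry substance P. The deposited values are counts per gene, and every Tac1 value below is a sum over transcripts that the counts cannot separate.

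Every D1-like nucleus of both plates held Tac1 reads, and the level within this class spanned more than an order of magnitude. Tac1 had a lowest value of 5.08, a median of 3130.45 and a highest value of 10700.3 CPM in the D1-like nuclei of Oprm1-Cre mice. In those of Slc32a1-Cre mice these values were 4.28, 1574 and 16405 CPM. The nuclei of the plates overlapped over most of this range, and the highest single value was a Slc32a1-Cre nucleus. With every nucleus thinned to 50000 reads, which left out 1 shallower D1-like nucleus of each genotype, the share with a Tac1 read was 100% in both (intervals from 98.6% and from 97.8%).

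The middle of the distribution lay higher in Oprm1-Cre mice. Tac1 in D1-like nuclei ran there from a lower quartile of 1717 CPM to an upper quartile of 4934 CPM, against 832 to 2767 CPM in Slc32a1-Cre mice. Above 5000 CPM lay 64 D1-like nuclei (24.1%) of Oprm1-Cre mice and 10 (6.06%) of Slc32a1-Cre mice, and below 1000 CPM lay 11.3% and 30.3%. Of the D1-like nuclei of Oprm1-Cre mice, 76.3% were above the Slc32a1-Cre median, and 18.8% of those of Slc32a1-Cre mice were above the Oprm1-Cre median. The 2 distributions thus overlapped. Summed over D1-like nuclei, Tac1 was at 3584 CPM (3567 to 3601) in Oprm1-Cre mice and 2113 CPM (2097 to 2129) in Slc32a1-Cre mice. The log2 ratio of these sums, with 5 CPM added to both, was 0.76, above 92.6% of the 11029 genes with at least 5 CPM in either sum. This did not reach the log2 ratio of 1 used to call a gene, which 3.64% of those genes passed upwards and 2.17% passed downwards. The median log2 ratio over all of them was -0.0022.

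**Figure D1:**
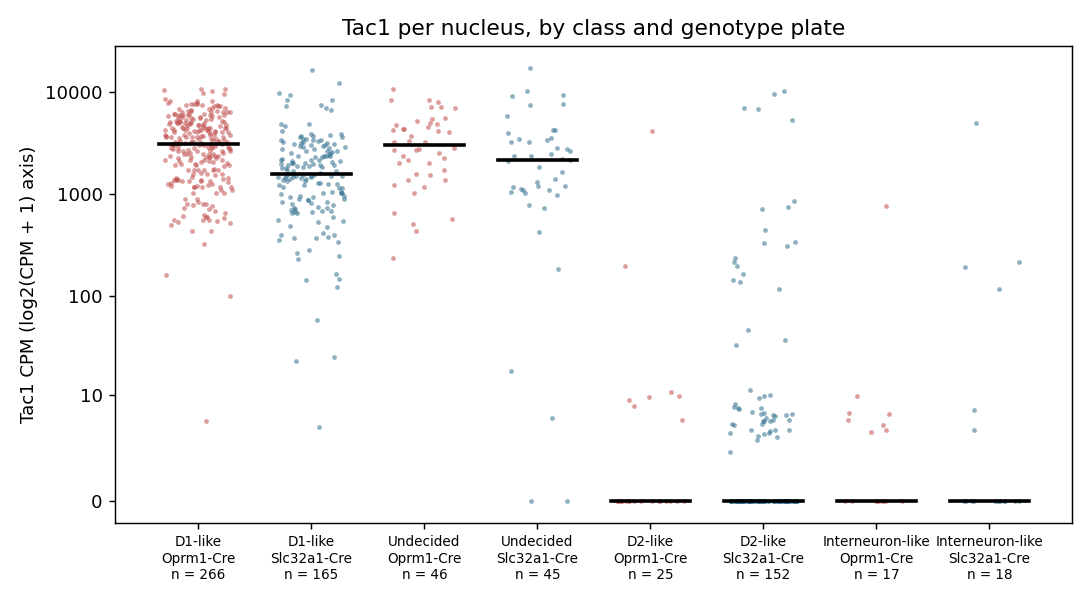
Tac1 level of each nucleus (CPM on a log axis, with nuclei without a read drawn at the bottom) by class and plate, with Oprm1-Cre mice left of Slc32a1-Cre mice and bars at the medians. D1-like nuclei have medians of 3130.45 and 1574 CPM, while the medians of D2-like and interneuron-like nuclei are at 0.

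Relative to its level, the spread of Tac1 within the D1-like class was wider in Slc32a1-Cre mice. In CPM, the quartiles given above lay further apart in Oprm1-Cre mice. The coefficient of variation over nuclei was 0.640 in Oprm1-Cre mice and 1.03 in Slc32a1-Cre mice. Counting of reads as independent molecules would give 0.0388 and 0.0505. Reads are not independent molecules here, so these 2 values are too low a floor, and the technical part of the spread was not measured. The 95th percentile lay 13.01-fold above the 5th in Oprm1-Cre mice (7592 and 584 CPM) and 29.5-fold in Slc32a1-Cre mice (6914 and 234.5 CPM). Among the genes with a mean of at least 500 CPM in D1-like nuclei, 24.2% varied less than Tac1 in Oprm1-Cre mice and 87.6% in Slc32a1-Cre mice, and the median gene had 0.771 and 0.779. Ppp1r1b, the gene of the SPN signalling protein DARPP-32, had 0.637 and 0.614, so that it stood beside Tac1 in Oprm1-Cre mice and well below it in Slc32a1-Cre mice. Pdyn, the gene of the opioid peptide precursor prodynorphin that D1 neurons also make, varied more, with coefficients of 1.08 and 1.66, in Slc32a1-Cre mice above every other gene of this level.

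Tac1 was absent or low in most D2-like nuclei. Reads of Tac1 were present in 8 of 25 D2-like nuclei (32%) of Oprm1-Cre mice and 58 (38.2%) of Slc32a1-Cre mice, but 6 and 37 of these nuclei held only 1 to 4 reads. After thinning the shares were 16% and 22.4%, and the median level was 0 CPM in both plates. Beside this, Sst, a gene of interneurons, had a read in 24.1% and 36.97% of the D1-like nuclei without thinning, at median depths of 169770 and 174410 reads. Summed Tac1 in D1-like and D2-like nuclei was 3584 and 160.8 CPM in Oprm1-Cre mice and 2113 and 291.5 CPM in Slc32a1-Cre mice. The D1-like over D2-like log2 ratios were 4.44 and 2.84, each above 99.9% of the genes compared after rounding. A ratio above 1 was found for 15.7% of the genes in Oprm1-Cre mice, where D2-like nuclei are few, and for 3.52% in Slc32a1-Cre mice.

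The D2-like sums rested on 6 nuclei that exceeded 1000 CPM of Tac1, a group chosen after the values were seen. Tac1 was at 4111 CPM in 1 such nucleus of Oprm1-Cre mice, and at 5379, 6843, 6996, 9459.75 and 10132.5 CPM in 5 of Slc32a1-Cre mice. These levels lie within the range of D1-like nuclei. Without these nuclei the D2-like sums were 7.52 and 33.1 CPM, with highest values of 197.05 and 858 CPM, and the log2 ratios of D1-like over D2-like were 8.16 and 5.80. All 6 held reads of Drd2, the D2 dopamine receptor gene, and of Adora2a, an adenosine receptor gene, which are among the markers that set the class. Median Drd2 was 732 CPM in the 6 and 455 CPM in the other D2-like nuclei, and median Adora2a was 203.2 and 1595 CPM. Penk, the enkephalin precursor gene and another class marker, ranged from 8.23 to 31731 CPM in the 6. Its median there was 2264 CPM, against 16141 CPM in the other D2-like nuclei. Otof, a gene known as a marker of eccentric SPNs, had a read in 4 of the 6 and in 2.92% of the others. Likewise Cacng5, which encodes an auxiliary subunit of AMPA receptors, had one in 4 of the 6 and in 5.26% of the others, and the collagen gene Col11a1 in 4 and in 1.17%. The other members of the eccentric SPN list were read in fewer of the 6, with Adarb2 in 2 (3.51% of the others), Tshz1 in 1 (14.04%), Casz1 in 1 (1.17%) and Pcdh8 in 0 (1.17%). Drd1 had a read in 3 of the 6 and in 54 (31.6%) of the others. It exceeded 100 CPM in all 3 of the former, at 481, 673 and 2050 CPM, and in 6 of the 54. Genes with a read numbered 3144 in the 6 at the median, against 3343 in the other nuclei. With 25 possible doublets of both plates left out, the D1-like over D2-like log2 ratios were 4.44 in Oprm1-Cre mice and 2.76 in Slc32a1-Cre mice. Whether any of the wells of the 6 nuclei held more than 1 nucleus was not tested.

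Undecided nuclei resembled D1-like nuclei in Tac1. Their Tac1 level ran from 237.8 to 10782 CPM with a median of 3017 CPM in Oprm1-Cre mice, and from 0 to 17319 CPM with a median of 2176 CPM in Slc32a1-Cre mice. A Tac1 read was present in 46 of 46 and 43 of 45. The D1 score exceeded the D2 score in 40 and 39 of these nuclei, and 45 of each plate held a read of Drd1, which the table lists under the older symbol Drd1a. With the class limit moved from a score gap of 2 to 1, which was tried after seeing the data, the Oprm1-Cre ratio of D1-like over D2-like was 3.91.

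Within D1-like nuclei, Tac1 varied together with genes of the patches and opposite to genes of the matrix, weakly to moderately. A patch score was taken as the mean log2(CPM + 1) of 12 genes such as Pdyn, Oprm1, Sema5b and Lypd1, and a matrix score as that of 10 genes such as Epha4, Calb1, Id4 and Sv2b. Spearman's rho of Tac1 with the patch score, taken over the D1-like nuclei of each plate (431 in all), was 0.43 in Oprm1-Cre mice and 0.31 in Slc32a1-Cre mice. With the matrix score it was -0.32 and -0.25. These are descriptions over nuclei that share a plate and differ in depth, and values in CPM share a total. Without Pdyn the patch rho was 0.39 and 0.17, so in Slc32a1-Cre mice much of the value came with that gene. Tac1 was also related to the number of genes with a read (-0.35 and -0.21) and to a score of nuclear-retained transcripts (-0.26 and -0.29), but less to read depth (0.11 and -0.10). With ranks adjusted for reads, genes with a read and the spike-in share, the matrix rho of Oprm1-Cre mice was -0.20.

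Taken gene by gene, 10 of the 12 patch genes had a rho with Tac1 above 0 in Oprm1-Cre mice and 9 of 12 in Slc32a1-Cre mice, with medians of 0.13 and 0.10. Over all 15914 and 14961 genes with a read in a D1-like nucleus, 33.9% and 42.5% were above 0, with medians of -0.03 and -0.016. Of the 10 matrix genes, 9 and 8 were below 0, with medians of -0.13 and -0.08. Sema5b, a guidance molecule of the semaphorin family, had 0.30 and 0.31, and Lypd1, which encodes a modulator of nicotinic receptors, 0.37 and 0.19. Kremen1, a Wnt pathway receptor gene, had 0.17 and 0.21, and Oprm1 itself 0.13 and 0.11, with Oprm1 read in 32.7% and 3.03% of these nuclei. Not every member followed Tac1. Bach2, a transcription factor gene, had -0.07 and -0.01, and the ion channel gene Asic4 had 0.16 and -0.07. Kcnip1, a potassium channel partner gene, had -0.03 and -0.06, but was read in only 1.13% and 1.21% of the nuclei. On the matrix side the ephrin receptor gene Epha4 had -0.31 and -0.21, the synaptic vesicle gene Sv2b -0.23 and -0.13, the transcriptional regulator gene Id4 -0.11 and -0.27 and the calbindin gene Calb1 -0.16 and -0.04.

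Pdyn had a high rho with Tac1 in both plates. Its rho was 0.39 in Oprm1-Cre mice and 0.47 in Slc32a1-Cre mice, the highest there of 6657 genes, counting genes with a read in at least 20% of the D1-like nuclei of both plates. It was the only 1 of the 6657 to reach 0.3 in both, a share of 0.015%, but Sema5b, which also did, is not among them because it had a read in 15.8% of the Slc32a1-Cre D1-like nuclei. At least 0.3 was reached by 0.135% in Oprm1-Cre mice and 0.0451% in Slc32a1-Cre mice. Pdyn reads were present in 96.6% of the Oprm1-Cre and 63.03% of the Slc32a1-Cre D1-like nuclei. Median Tac1 was 3152 CPM in nuclei with Pdyn and 1029.9 CPM in the 9 without in Oprm1-Cre mice, and 1922.5 CPM in nuclei with Pdyn and 1264 CPM in the 61 without in Slc32a1-Cre mice. High Tac1 without a Pdyn read also occurred, up to 5910.02 CPM in Oprm1-Cre mice and 4676 CPM in Slc32a1-Cre mice. Summed Pdyn in D1-like nuclei was 1613 CPM in Oprm1-Cre mice and 814 CPM in Slc32a1-Cre mice, a log2 ratio of 0.98.

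**Figure D2:**
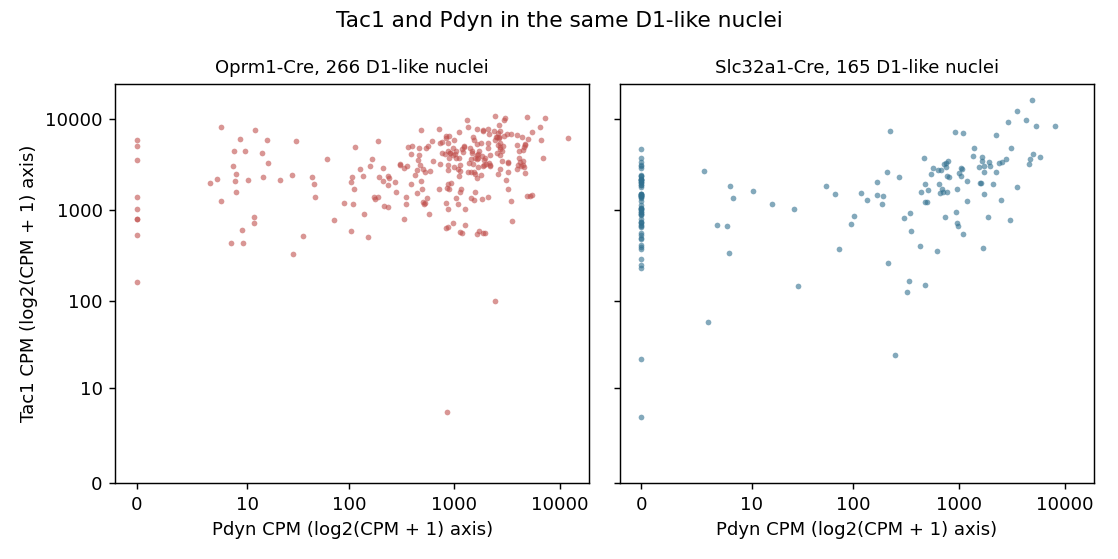
Tac1 against Pdyn in each D1-like nucleus (CPM, both axes logarithmic), with Oprm1-Cre mice in the left panel and Slc32a1-Cre mice in the right. Tac1 and Pdyn are related with a Spearman's rho of 0.39 and 0.47, and 61 nuclei of Slc32a1-Cre mice have no Pdyn read.

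The D1-like nuclei with the most and the least Tac1 were then set side by side. In Oprm1-Cre mice, the 66 D1-like nuclei highest in Tac1 had a median of 6349.8 CPM of Tac1 and 2086 CPM of Pdyn, and the 66 lowest had 1059 and 513 CPM. In Slc32a1-Cre mice, the 41 highest had 3620.2 CPM of Tac1 and 1539 CPM of Pdyn, and the 41 lowest had 481 and 4.23 CPM. Of the 12 patch genes, 10 had reads in more of the highest than of the lowest nuclei of Oprm1-Cre mice and 1, Bach2, in fewer, while 8 had reads in more and 4 (Rasgrp1, Asic4, Bach2 and Kcnip1) in fewer in Slc32a1-Cre mice. Of the 10 matrix genes, 2 (Epha7 and Rasgrp2) had reads in more and 8 in fewer in Oprm1-Cre mice, and 1 (Gda) in more, 6 in fewer and 3 in as many in Slc32a1-Cre mice. Tac1 ranks set these groups, so the counts restate the correlations. Sema5b reads were present in 52 of the highest and 28 of the lowest nuclei of Oprm1-Cre mice, and in 17 and 3 of those of Slc32a1-Cre mice. Lypd1 reads were present in 43 and 15 nuclei of Oprm1-Cre mice and in 17 and 7 of Slc32a1-Cre mice. These 2 were the patch genes with the widest gaps in Oprm1-Cre mice, while Nnat differed little there (25 and 23 nuclei). Epha4, a matrix gene, went the other way, with reads in 15 of the highest and 39 of the lowest nuclei of Oprm1-Cre mice and in 24 and 37 of Slc32a1-Cre mice. Calb1 reads were present in 33 and 51 nuclei of Oprm1-Cre mice but in 36 and 36 of Slc32a1-Cre mice. The highest nuclei also had fewer genes with a read, with medians of 3439.5 and 4096.5 in Oprm1-Cre mice and 3241 and 3644 in Slc32a1-Cre mice, and what part this has in the shares was not tested.

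Beyond the lists, the 10 genes most like Tac1 by the lower rho of the plates included Pdyn, Serpine2, Scg2, Pam, Syp, Gpm6a, D3Bwg0562e, Ramp1 and Tspan3. Serpine2, the gene of the protease inhibitor protease nexin 1, had 0.50 in Oprm1-Cre mice, the highest of any gene there, and 0.30 in Slc32a1-Cre mice. The secretogranin gene Scg2 had 0.26 and 0.29, and the synaptophysin gene Syp 0.23 and 0.31. Ramp1, which encodes a partner of the calcitonin receptor-like receptor, had 0.29 and 0.21. The 5 genes most opposite included the long noncoding RNA Snhg11 (-0.28 and -0.30), the protocadherin gene Pcdh9 (-0.33 and -0.26), the transcription factor gene Zfhx3 (-0.32 and -0.24) and Camk2n1 (-0.23 and -0.29), which encodes an inhibitor of CaM kinase II. Drd1 had a higher rho with Tac1 in Oprm1-Cre mice (0.36) than in Slc32a1-Cre mice (0.09). This difference between plates was not tested.

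**Figure D3:**
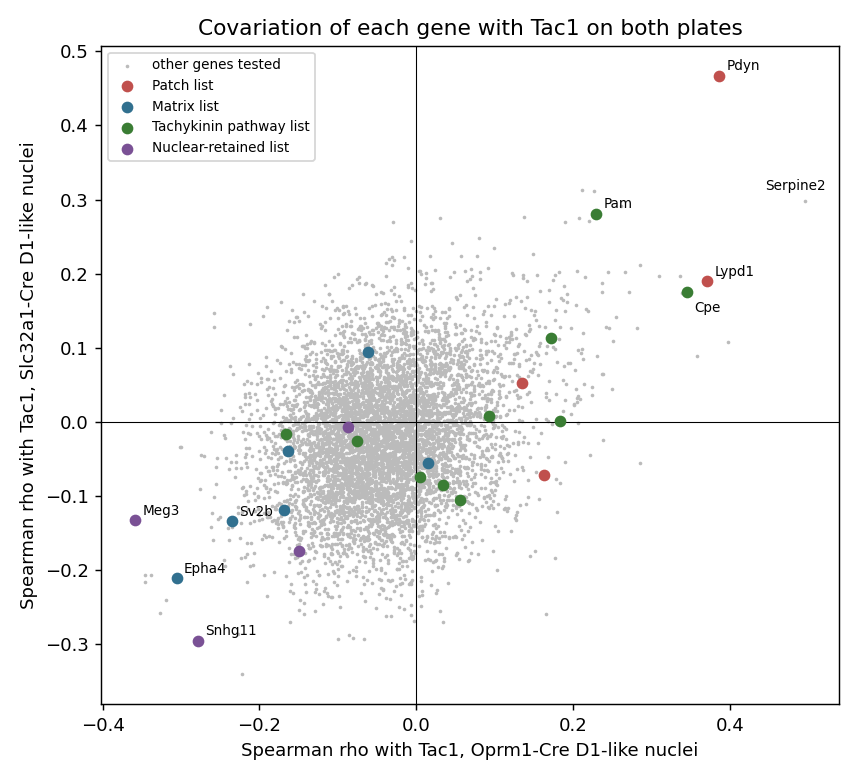
Spearman's rho with Tac1 over D1-like nuclei for each of 6657 genes, in Oprm1-Cre mice (horizontal axis) and Slc32a1-Cre mice (vertical axis), with the members of 4 lists that had a read in at least 20% of the nuclei of both plates marked. Of these 6657 genes Pdyn alone lies at or above 0.3 in both plates (Sema5b, read in fewer nuclei, is not drawn), and the matrix gene Epha4 lies at -0.31 and -0.21.

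Genes that make, process, sense and break down tachykinins were examined as a list of 17 besides Tac1, of which 15 had a read in D1-like nuclei of each plate. Their rho with Tac1 was above 0 for 12 in Oprm1-Cre mice and 9 in Slc32a1-Cre mice, with medians of 0.06 and 0.008, where 33.9% and 42.5% of all genes with a read were above 0. The highest in each plate encode enzymes that finish the peptide's C terminus. Pam, the gene of the amidating enzyme that substance P needs, had 0.23 and 0.28, and Cpe, the carboxypeptidase gene, 0.35 and 0.17. Scg5, which encodes the chaperone of prohormone convertase 2, had 0.17 and 0.11, and the convertase gene Pcsk2 0.18 and 0.00. The peptidase genes had 0.09 and 0.01 (Mme, neprilysin) and 0.06 and -0.11 (Ace). Between plates, 0 of 12 measured members had a log2 ratio above 1 in D1-like nuclei and 1 was below -1. This was the neurokinin 3 receptor gene Tacr3, at 0.0202 CPM in Oprm1-Cre mice and 5.35 CPM in Slc32a1-Cre mice. Tacr3 had a read in 0.376% and 1.21% of these nuclei, and 1 D1-like nucleus of Slc32a1-Cre mice held 772 CPM of it. Between D1-like and D2-like nuclei, Ace (1.13) and the G protein gene Gnaq (1.06) were above 1 in Oprm1-Cre mice. These were 2 of 12 members, where 15.7% of all genes were above 1. In Slc32a1-Cre mice Ace and Gnaq stood at 0.32 and 0.25. Only Tacr3 (1.05) was above 1 there, with the same 1 nucleus in its D1-like sum. Below -1 lay only the phospholipase gene Plcb4 in Oprm1-Cre mice, where 6.4% of all genes did, and 0 members in Slc32a1-Cre mice, where 2.39% did.

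Clusters made without Tac1 differed in its level among their D1-like nuclei. A cluster with Pdyn, Lypd1 and Wfs1 among its leading genes had Tac1 medians of 4636 CPM (63 nuclei) in Oprm1-Cre mice and 3620.2 CPM (19 nuclei) in Slc32a1-Cre mice. One led by Pdyn and Sema5b had 3282 and 3273 CPM, the second from 5 nuclei. A cluster with Calb1 and Sv2b among its leading genes had 1778 CPM (8 nuclei) and 1517 CPM (93 nuclei), and one led by Coch and Cnr1, with Epha4, had 1566 CPM (11 nuclei) and 1045 CPM (25 nuclei). A cluster led by Mtpn and Impa1 had 3218 CPM (33 nuclei) and 1708 CPM (14 nuclei), a gap between plates much like that over all D1-like nuclei, and one led by Camkk2 and Mark3 had 1319 CPM (32 nuclei) and 1465 CPM (7 nuclei). The sex-linked genes Eif2s3y and Xist are among the leading genes of the Sema5b and the Calb1 cluster, and most D1-like nuclei of each came from 1 plate, so cluster and plate cannot be told apart for them.

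Marker lists of other cells differed in their level in D1-like nuclei. The 4 neurogliaform markers summed to 500.3 CPM in Oprm1-Cre mice and 614.6 CPM in Slc32a1-Cre mice, with a rho with Tac1 of 0.14 and -0.07. Nearly all of this was Lamp5 (389.05 and 486.5 CPM) and Sv2c (110.28 and 114.57 CPM), which had reads in most D1-like nuclei, while Ndnf was at 0 and 7.70 CPM. The 6 excitatory neuron markers summed to 1.32 CPM in Oprm1-Cre mice and 0.555 CPM in Slc32a1-Cre mice, and the 5 vessel markers to 0.0405 and 0 CPM. Oligodendrocyte markers summed to 358.8 and 234.8 CPM, with a rho with Tac1 of 0.03 and -0.07, and the 5 oligodendrocyte precursor markers, chiefly Vcan, to 83.8 and 29.3 CPM, with a rho of 0.19 and -0.007. The part of these markers in the Tac1 values was not tested.

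Tacr1 was concentrated in interneuron-like nuclei. Summed over this class, Tacr1 was at 548 CPM (523 to 574) in Oprm1-Cre mice, against 6.02 CPM (5.42 to 6.67) in SPN-like nuclei, and at 1195 CPM (1161 to 1230.5) in Slc32a1-Cre mice, against 14.5 CPM (13.7 to 15.5). The log2 ratios of interneuron-like over SPN-like were 5.65 and 5.94, where 18.8% and 17.6% of all genes compared lay above 1. Of the 16 other tachykinin pathway genes, 8 of 15 measured were above 1 and 3 below -1 in Oprm1-Cre mice, and 5 of 14 and 3 of 14 in Slc32a1-Cre mice, where 26.3% and 21.6% of all genes lay below -1. The 17 and 18 interneuron-like nuclei held 82.9% and 82.3% of all Tacr1 reads of their plates, so the few nuclei of this class carried most of the receptor's reads. A Tacr1 read was present in 10 of 17 interneuron-like nuclei (58.8%, 32.9% to 81.6%) and 13 SPN-like nuclei (3.86%, 2.07% to 6.51%) of Oprm1-Cre mice. In Slc32a1-Cre mice it was present in 10 of 18 (55.6%, 30.8% to 78.5%) and 24 (6.63%, 4.29% to 9.70%). Interneuron-like nuclei were deeper, with median depths of 193110 and 224582 reads against 169398 and 174132 in SPN-like nuclei. After thinning, the shares were 56.2% and 2.69% in Oprm1-Cre mice and 55.6% and 5.26% in Slc32a1-Cre mice. The ratio in Oprm1-Cre mice was 4.03 with possible doublets left out and 2.15 with each nucleus classed alone rather than by cluster.

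Among the interneuron-like nuclei, Tacr1 was highest in those with somatostatin, neuropeptide Y and nitric oxide synthase. All 8 nuclei like this type held Tacr1, at 1054, 2464 and 3103 CPM in 3 nuclei of Oprm1-Cre mice and at 412.6, 2866, 3279, 3959 and 8447 CPM in 5 of Slc32a1-Cre mice. All 8 held reads of Sst, Npy and Nos1, and 4 held Chodl, a marker of the long-range members of this type. These genes are among the markers that set the type. Both cholinergic-like nuclei, which came from Slc32a1-Cre mice, held Tacr1 at 1685 and 2421 CPM. They had reads of Chat, Slc5a7 and Slc18a3, the genes of acetylcholine synthesis and transport, which are likewise among the markers of their type.

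Other interneuron types held less Tacr1 or none. Of 15 nuclei with both Th, the tyrosine hydroxylase gene, and Trh, the thyrotropin-releasing hormone gene, 9 held Tacr1. In Oprm1-Cre mice 7 of 13 such nuclei held it, up to 335.04 CPM, and in Slc32a1-Cre mice both did, at 162.04 and 519 CPM. Of 9 nuclei like the fast-spiking and Pthlh type, all from Slc32a1-Cre mice, 1 held Tacr1, at 183.3 CPM, and that nucleus held Chat and neither Pvalb nor Pthlh. The remaining interneuron-like nucleus, of Oprm1-Cre mice, had no Tacr1 read. It scored highest for neurogliaform markers, with reads of 3 of 4, but also held 8911 CPM of Penk. The plates therefore delivered different mixtures, with 13 and 2 nuclei of the Th and Trh type and 0 and 9 of the fast-spiking and Pthlh type, and their class sums are not compared.

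**Figure D4:**
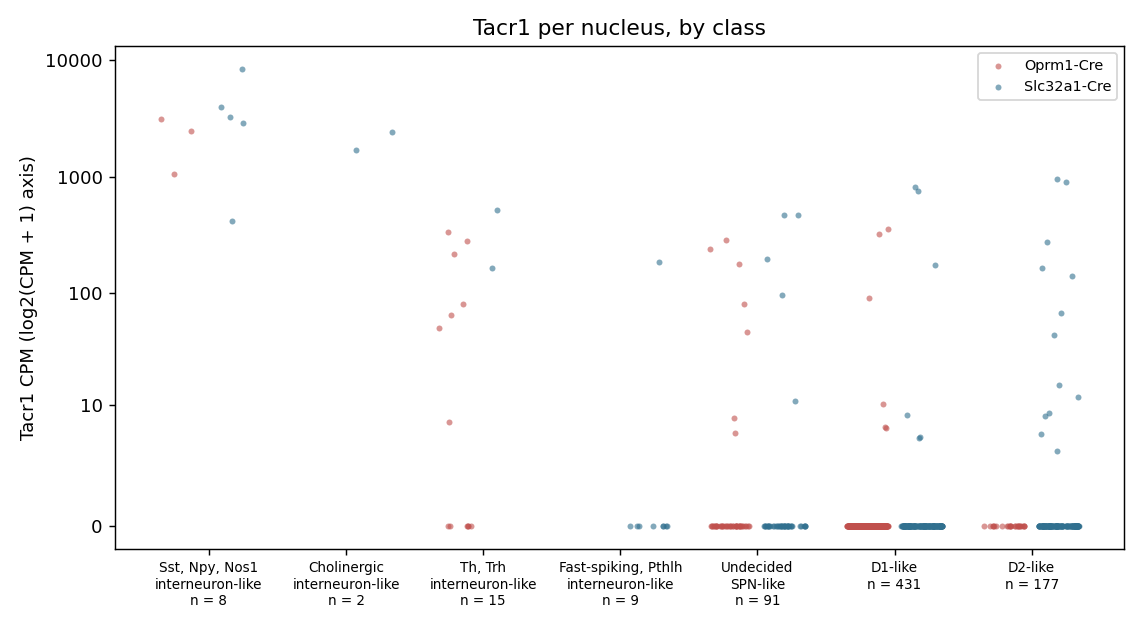
Tacr1 level of each nucleus (CPM on a log axis, with nuclei without a read drawn at the bottom) in interneuron-like types and in SPN-like classes, for the Oprm1-Cre and Slc32a1-Cre plates. All 8 nuclei of the Sst, Npy and Nos1 type and both cholinergic-like nuclei hold Tacr1, while 37 of 699 SPN-like nuclei do.

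The genes whose pattern over all kept nuclei was most like that of Tacr1 included Nos1 and Npy, markers of the interneurons with the most Tacr1. By Pearson's r of log2(CPM + 1) over the kept nuclei of each plate, the 5 highest of 12980 genes were Hhip (0.51 and 0.51), which encodes a binding protein of hedgehog ligands, Nos1 (0.47 and 0.47), Mxra7 (0.46 and 0.47), the kainate receptor gene Grik1 (0.47 and 0.46) and Npy (0.45 and 0.49). Few kept nuclei held reads of these genes, so each r rests on few nuclei. Hhip was read in 7 and 10, Nos1 in 9 and 8, Mxra7 in 11 and 18, Grik1 in 10 and 6 and Npy in 36 and 46. The r of Sst was 0.31 and 0.30, and that of Tac1 was -0.21 and -0.08. Tac1 had a median of 0 CPM in interneuron-like nuclei of both plates, the class that held most Tacr1 reads. An exception was a nucleus of the Sst, Npy and Nos1 type in Slc32a1-Cre mice with 4959.65 CPM of Tac1 beside 3959 CPM of Tacr1, which also held 1029 CPM of Drd1.

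In SPN-like nuclei Tacr1 was rare but not always near a single read. Of the 37 SPN-like nuclei with Tacr1 among 699, 15 held 1 to 4 reads, 12 of them a single read, and 22 held at least 5, at 42.8 to 956 CPM with a median of 216.7 CPM. These 22 were 6 of 431 D1-like nuclei, 7 D2-like nuclei and 9 of 91 undecided nuclei. In Oprm1-Cre mice 0 of 25 D2-like nuclei held a read, which allows a share of up to 12% by a limit of 3 counts and up to 13.7% by the exact interval. The 22 nuclei, a group chosen by the Tacr1 value, did not stand apart in depth, with a median of 172307 reads against 172264 in the other 677. Otof reads were present in 6 of the 22 (27.3%) and 29 of the 677 (4.28%), and reads of Adarb2, an RNA-editing family gene, in 7 (31.8%) and 39 (5.76%). Most of the Otof contrast came from Slc32a1-Cre mice, with 35.7% (5 of 14) and 3.45%, against 12.5% (1 of 8) and 5.17% in Oprm1-Cre mice. Tshz1, a transcription factor gene of a D1 subset, had reads in 9 (40.9%) and 20.2%. Of the markers of the interneurons with the most Tacr1, Npy had reads in 5 of the 22 (22.7%) and 9.75% of the 677, and exceeded 100 CPM in 3 and 13 nuclei. Sst had reads in 7 (31.8%) and 31.02%, and exceeded 100 CPM in 2 and 13 nuclei. By plate, the Sst shares were 50% (4 of 8) and 25.8% in Oprm1-Cre mice, and 21.4% (3 of 14) and 35.9% in Slc32a1-Cre mice. Nos1 had reads in 0 and 8 nuclei, Slc5a7 in 0 and 8, and Chat in 1 and 32. Trh, a marker of the Th and Trh type, had reads in 2 of the 22 (9.09%) and 1.62% of the 677. The Trh shares were 25% (2 of 8) and 1.22% in Oprm1-Cre mice, and 0 of 14 and 2.01% in Slc32a1-Cre mice. The part of such reads in the Tacr1 values was not tested. In Oprm1-Cre mice, Tac1 had a median of 3204 CPM in the 8 nuclei with at least 5 Tacr1 reads, against 3006 CPM in the other SPN-like nuclei. In Slc32a1-Cre mice it had a median of 2947 CPM in 14 such nuclei, against 672 CPM in the others. These 14 were 3 D1-like, 7 D2-like and 4 undecided nuclei. A Tac1 read was present in 71.4% of them and in 73.6% of the others.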

How the data were processed

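The deposited values are whole-number read counts per gene and well, which the authors gave as 1 table per genotype and 1 joint table with 18878976 identical values. The submitters' processing notes name mm10, SAMtools and Seurat. Aligner, counter, annotation and strand setting were not given in the sources used here. The RNA was purified on columns and depleted of ribosomal RNA for stranded libraries, per the labels, and how each nucleus was amplified is not stated. Slc32a1-Cre samples carry labels with another plate number than their table, so wells were assigned by the column names.

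Wells with at least 1000 genes and 20000 reads on genes were kept, with 92 spike-ins and the eGFP entry left out of totals, and 0 pairs of wells held identical values. Of 384 wells per genotype, 355 Oprm1-Cre and 381 Slc32a1-Cre wells were kept. Both plates were clustered together on the 2000 most variable genes with 30 components, 15 neighbours, Leiden resolution 1 and seed 1. Python 3.11.15 was used with igraph 0.11.9 and leidenalg 0.10.2 for clusters, numpy 2.4.6, pandas 2.3.3 and scipy 1.17.1 for values, and matplotlib 3.10.9 for figures. A gap above 2 between the mean log2(CPM + 1) of the 6 D1 and 7 D2 markers set the D1-like (266 Oprm1-Cre and 165 Slc32a1-Cre nuclei) and D2-like (25 Oprm1-Cre and 152 Slc32a1-Cre nuclei) classes among 337 Oprm1-Cre and 362 Slc32a1-Cre SPN-like nuclei, and 90 nuclei lay within 0.5 of a limit. These numbers stand behind every share, sum and correlation over a class. Doublets were not called by a tool, and 25 possible ones were left out as an alternative.

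Shares have Clopper-Pearson intervals and sums Poisson intervals, and a count of 0 was given a limit of 3 counts. No test was run, since each genotype is 1 sample. The scripts were tested on simulated data. The members, gene lists and rules were chosen with earlier results of these data known. Genes besides list members were named by rule: the 10 highest and 5 lowest by rho with Tac1 over both plates, and the 5 most correlated with Tacr1, of which some are not reported here. Genes of the nuclei chosen by their Tac1 or Tacr1 level, and Drd1, were named after their values were seen. Gene models and exon sequences are from GENCODE M21 on GRCm38.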

Additional observations from a re-analysis of the deposited data

Results flagged for a closer look

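Tac1 reads were also present in wells left out for depth. The 29 Oprm1-Cre wells left out held 14 Tac1 reads in 12 wells, at most 2 reads in a well, among 22834 reads on genes, and 0 Tacr1 reads. The 3 Slc32a1-Cre wells left out held 0 Tac1 reads among 25157. The source of these reads was not tested.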

How the results depend on the processing

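Of the alternative values of 21 results under 17 settings, 88.5% kept their direction and moved by no more than 0.5 (log2), 0.1 (rho) or 0.2 (coefficient of variation), or, for shares, within the interval. Another 16 moved further and 0 changed sign. The log2 ratio of Tac1 between plates ran from 0.58 to 0.80. For D1-like over D2-like nuclei the ratio was 8.18 in Oprm1-Cre mice and 3.36 in Slc32a1-Cre mice with Tac1 used as a class marker, which by construction moves nuclei by the measured gene. It was 8.16 and 5.80 without the D2-like nuclei above 1000 CPM, and 3.91 in Oprm1-Cre mice with a class limit of 1, both added after seeing the data. In Slc32a1-Cre mice the share of nuclei with Tac1 was 97.6% of D1-like and 11.8% of D2-like nuclei at 5 reads, and 38.2% of D2-like nuclei without thinning, and the share with Tacr1 was 3.05% of SPN-like nuclei at 5 reads. The patch rho of Slc32a1-Cre mice was 0.17 without Pdyn, the matrix rho of Oprm1-Cre mice was -0.20 with ranks adjusted for depth, and Pearson's r of Tac1 with Pdyn was 0.35 in Slc32a1-Cre mice. The ratio of Tacr1 in interneuron-like over SPN-like nuclei was 4.03 without possible doublets, 6.29 with 1 CPM added and 2.15 with each nucleus classed alone in Oprm1-Cre mice, and 4.78 with each nucleus classed alone in Slc32a1-Cre mice. The cause of the moves was not tested.

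Leaving out a cluster led by Otof was not run, because there was none, and nuclei with an Otof read were left out instead. No paired analysis was possible because each genotype is 1 plate whose numbers name only wells, and no test was made. Depth limits single nuclei: a single read weighs several CPM at these depths, so low levels of Tacr1 or Oprm1 in a nucleus can be missed.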

Other observations

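The neurokinin B precursor gene Tac2 and the neurokinin 3 receptor gene Tacr3, the other tachykinin pair, were found in interneuron-like nuclei too. Tacr3 was at 618 CPM in interneuron-like and 0.049 CPM in SPN-like nuclei of Oprm1-Cre mice, and at 157.5 and 2.41 CPM in Slc32a1-Cre mice. Its reads were in 13 of the 15 nuclei of the Th and Trh type, and both cholinergic-like nuclei held it as well. Over all kept nuclei its r with Tacr1 was 0.37 in Oprm1-Cre mice and 0.38 in Slc32a1-Cre mice. Of the other pathway genes, the phospholipase gene Plcb4 (3.79 and 3.47), Pam (1.49 and 2.27) and the convertase gene Pcsk1 (1.54 and 2.03) had a log2 ratio of interneuron-like over SPN-like nuclei above 1 in both genotypes, as did 18.8% and 17.6% of all genes in each. The neprilysin gene Mme (-1.59 and -2.29) and the phospholipase gene Plcb1 (-1.94 and -1.43) were below -1 in both, as were 26.3% and 21.6% of all genes in each.

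In D1-like nuclei, a list of ventral or medial striatum genes went with Tac1 in opposite directions in the plates, with 0 of 5 genes above a rho of 0 in Oprm1-Cre mice and 5 of 5 in Slc32a1-Cre mice (medians -0.14 and 0.09), where 33.9% and 42.5% of all genes with a read were above 0 (medians -0.03 and -0.016). The difference between plates was not tested. Among these genes, Dlk1, Trhr and Peg10 were read in only 2.42%, 1.82% and 4.24% of the Slc32a1-Cre D1-like nuclei, so their signs rest on few nuclei. Immediate early genes, which respond to recent activity, had 7 of 12 above 0 in each plate, against the same shares of all genes, with medians of 0.02 and 0.04. A score of eccentric SPN genes had a rho with Tac1 of 0.11 and 0.25.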
